A study of Mus musculus with 6 samples.

Results

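The brush border digestive hydrolases described here are 9 genes whose enzymes sit on the microvilli of the absorptive cells of the gut. They are the disaccharidases Sis, Lct and Treh, the peptidases Anpep, Enpep, Dpp4, Mep1a and Mep1b, and the alkaline phosphatase Alpi. They were taken by symbol from the probe sets that carry exactly 1 gene symbol, and all 9 were measured, among 19938 genes in all. Each has 1 such probe set, so no choice between probe sets was needed. Signals were compared between 3 YAP Tg and 3 Control samples of isolated intestinal crypts, 1 array per sample; the titles call each Control sample a mouse but do not say this of the YAP Tg samples. By the series title the YAP Tg mice express YAP-S127A, driven by Villin-rtTA and doxycycline. YAP is a transcriptional coactivator, and in this form a serine that the Hippo kinases use to restrain it is replaced. The villin promoter is active in intestinal epithelial cells, so other cells of the preparation are not expected to carry active transgene. Doxycycline was given for 2 days. The labels give the other group only as Control, so its alleles, and whether it received doxycycline, are not stated, and effects of the drug or of the rtTA protein and effects of YAP cannot be told apart. The sources used here give no age, strain or stretch of intestine.

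The final steps of digestion take place on the enterocyte surface, where membrane-bound enzymes cut disaccharides into single sugars and peptides into shorter peptides and amino acids for the transporters beside them. These enzymes are made as cells leave the crypt and mature on the villus. In rodents lactase is high during suckling, while sucrase-isomaltase and trehalase appear around weaning. The transcription factors CDX2, HNF1, HNF4 and GATA4 are known activators of such genes, and PRDM1 (Blimp1) is known in mice to hold back the adult enzymes before weaning.

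The 9 genes did not move as a group in YAP Tg crypts. Mep1a and Treh fell 5.49-fold and 4.35-fold, and Mep1b, the partner subunit of Mep1a, rose 1.62-fold. Lct averaged 5.69-fold lower but did not pass the test, and its YAP Tg values spread widely. At a threshold of 0.05 on limma's p-values adjusted over all genes, 1 of the 9 was higher and 2 were lower, where 7.5% of all genes tested were higher and 6.7% lower (14.2% in either direction). The 3 YAP Tg values lay wholly above the 3 Control values for 2 of the 9 and wholly below them for 6, against 16.5% and 17% of all genes (33.6% in either direction). The median log2 change of the 9 was -0.40, and that of all genes tested was 0.029.

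Stretches of promoter sequence are shown for Treh, Mep1a, Lct and Sis, whose means differed most downward, and for Alpi, whose mean was higher. Each is the 250 bases before the gene's start on its own strand, from RefSeq on build GRCm38.p6. The search covered 8 of the 9 members. Mep1b was left out of it, so whether its promoter holds these motifs is not known here. Capitals mark matches on either strand to 5 short motifs of known regulators. The Cdx factors are represented by TTTAT and the factor HNF4 by CAAAGTCCA. Part of the site of HNF1 is given by GTTAAT, and the letters searched for the GATA family were AGATAA. For the TEAD proteins, which carry YAP to DNA, CATTCC was searched. Neighbouring or overlapping matches run together, and in the Lct stretch a Cdx match overlaps a GATA-family match.
Treh, chr9:44672983-44673232, plus strand: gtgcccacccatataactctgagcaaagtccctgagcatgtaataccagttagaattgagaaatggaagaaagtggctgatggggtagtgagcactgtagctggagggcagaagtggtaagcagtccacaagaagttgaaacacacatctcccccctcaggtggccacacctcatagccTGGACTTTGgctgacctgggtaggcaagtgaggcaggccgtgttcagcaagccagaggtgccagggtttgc
Mep1a, chr17:43502774-43503023, minus strand: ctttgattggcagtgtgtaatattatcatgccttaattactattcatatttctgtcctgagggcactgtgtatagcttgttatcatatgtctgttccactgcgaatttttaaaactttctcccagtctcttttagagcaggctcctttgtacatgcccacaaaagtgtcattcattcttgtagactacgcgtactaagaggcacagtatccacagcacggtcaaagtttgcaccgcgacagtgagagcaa
Lct, chr1:128328319-128328568, minus strand: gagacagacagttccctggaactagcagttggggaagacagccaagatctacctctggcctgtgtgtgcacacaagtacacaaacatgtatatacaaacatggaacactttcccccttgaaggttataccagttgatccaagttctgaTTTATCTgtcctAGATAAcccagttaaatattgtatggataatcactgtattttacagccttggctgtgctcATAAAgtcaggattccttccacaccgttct
Sis, chr3:72967864-72968113, minus strand: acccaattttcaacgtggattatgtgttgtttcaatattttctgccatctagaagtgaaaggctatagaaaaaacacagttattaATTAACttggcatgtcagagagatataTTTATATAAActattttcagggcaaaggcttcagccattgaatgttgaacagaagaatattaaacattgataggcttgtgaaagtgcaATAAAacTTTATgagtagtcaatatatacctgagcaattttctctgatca
Alpi, chr1:87101607-87101856, minus strand: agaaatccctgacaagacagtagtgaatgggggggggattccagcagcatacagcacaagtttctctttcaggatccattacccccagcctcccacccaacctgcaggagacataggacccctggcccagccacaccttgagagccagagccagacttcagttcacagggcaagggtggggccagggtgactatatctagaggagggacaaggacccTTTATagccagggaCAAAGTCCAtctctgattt

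Letters matching the Cdx motif stood in 5 of the 8 stretches (Sis, Lct, Enpep, Dpp4 and Alpi), with 4 matches in Sis and 2 in Lct. Of all 32851 promoter stretches of this length, 37.3% hold it. The HNF4 letters stood in Treh, from 71 to 63 bases before the start, and in Alpi, from 19 to 11 bases before it, while 0.384% of all stretches hold them. GATA-family letters stood in Lct and Dpp4 (9.99% of all stretches) and the HNF1 letters in Sis (6.43%). TEAD letters stood in Dpp4 alone of the 8 (12.6% of all stretches). Mep1a and Anpep held none of the 5 motifs. The HNF4 motif is the longest of the 5, and a longer motif is rarer by its length alone. Treh and Alpi share this rarest of the letter matches. Their log2 changes were -2.12 and 0.27, and that of Alpi did not pass limma's test (adjusted p = 0.165). A match is a description of letters and not a binding site.

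The disaccharidases come first. Treh encodes trehalase, which splits trehalose into glucose. Its log2 signal was 8.0, 7.61 and 9.57 in YAP Tg samples 1, 2 and 3, against 10.60, 10.47 and 10.47 in Control samples 1, 2 and 3. All YAP Tg values lay below all Control values, with sample 3 nearest to them. The means were 8.39 ± 1.04 in YAP Tg and 10.52 ± 0.07 in Control crypts (SD, n = 3 each), which is a log2 change of -2.12 with an SE of 0.48 (limma's adjusted p = 0.0357). That call was lost without YAP Tg sample 1 (limma's adjusted p = 0.111) and without Control sample 1, 2 or 3 (0.137, 0.126 and 0.128), while the change ran from -2.71 to -1.73 with any 1 sample left out.

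Lct encodes lactase-phlorizin hydrolase, which splits the lactose of milk. Its log2 signal was 7.85, 8.78 and 10.89 in YAP Tg samples 1 to 3 and 11.89, 11.54 and 11.61 in Control samples 1 to 3. Again no YAP Tg value reached the Control range and sample 3 was nearest to it, with sample 1 lowest. The mean difference of -2.51 (SE 0.73, 95% interval -4.27 to -0.75) did not pass limma's test (adjusted p = 0.0732). Without YAP Tg sample 3 it was -3.37 and passed (limma's adjusted p = 0.00713).

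Sis encodes sucrase-isomaltase, which digests sucrose and the short branched products of starch. Its signal was 11.68, 12.08 and 12.77 in YAP Tg samples 1 to 3 and 12.97, 12.88 and 12.86 in Control samples 1 to 3. YAP Tg sample 3 stood just under the lowest Control. The difference of -0.73 (SE 0.26, 95% interval -1.36 to -0.09) did not pass (limma's adjusted p = 0.129), although without YAP Tg sample 3 it was -1.02 and did (0.0179). Sis thus differed less than Lct and Treh in log2 terms.

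**Figure D1:**
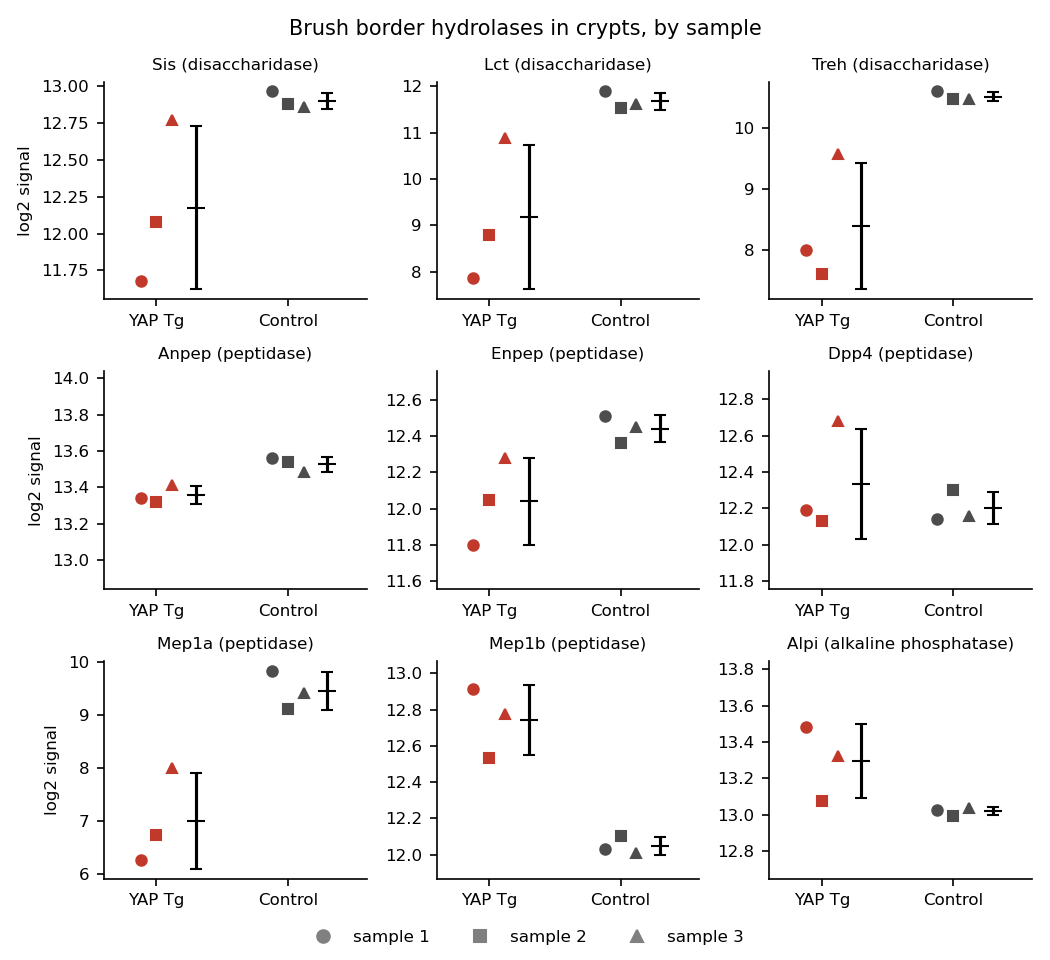
Log2 signal of each of the 9 hydrolases (vertical axis, a separate scale per panel that does not start at 0) in the 3 YAP Tg samples (red, left) and the 3 Control samples (grey, right), with the marker shape giving the sample number and bars the mean ± SD (n = 3). Treh and Mep1a were lower in YAP Tg crypts with a wide spread among these samples, Lct lay below the Controls without passing limma's test (adjusted p = 0.0732), Mep1b was higher, and the Dpp4 groups overlap.

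Among the peptidases the meprin subunits went opposite ways. Mep1a encodes the alpha subunit of meprin, a zinc metalloprotease, and the beta subunit, from Mep1b, anchors the complex in the membrane. Mep1a stood at 6.26, 6.73 and 8.01 in YAP Tg samples 1 to 3, against 9.84, 9.12 and 9.42 in Control samples 1 to 3. Every YAP Tg value was more than 1 log2 unit under the lowest Control value. Those of YAP Tg samples 1 and 2 were also below the median of all genes tested on their arrays (6.74 and 6.77). The size of the difference there is therefore less sure. The means were 7.0 ± 0.90 in YAP Tg and 9.46 ± 0.36 in Control crypts (SD, n = 3 each), which is a change of -2.46 with an SE of 0.45 (limma's adjusted p = 0.0183). The call was lost without Control sample 1, 2 or 3 (limma's adjusted p = 0.0882, 0.0645 and 0.0837), with changes of -2.27, -2.63 and -2.48.

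Mep1b stood at 12.92, 12.54 and 12.78 in YAP Tg samples 1 to 3 and at 12.03, 12.10 and 12.01 in Control samples 1 to 3. The groups did not overlap, and here YAP Tg sample 2 was nearest the Controls. Mep1b averaged 12.74 ± 0.19 in YAP Tg and 12.05 ± 0.05 in Control crypts (SD, n = 3 each) and rose by 0.70 (SE 0.11, limma's adjusted p = 0.0109). Its call was lost without Control sample 1 (limma's adjusted p = 0.0614) or Control sample 3 (0.0598). Taking Mep1a minus Mep1b on each array and setting the Control mean to 0, the difference was -4.07, -3.21 and -2.18 in YAP Tg samples 1 to 3 and 0.40, -0.40 and 0.00 in Control samples 1 to 3. The balance between the transcripts of the 2 subunits thus differed in the same direction in 3 of 3 YAP Tg samples.

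Both aminopeptidases had lower means, and neither passed the test. Anpep encodes aminopeptidase N, which trims neutral residues from peptides. It stood at 13.34, 13.32 and 13.41 in YAP Tg samples 1 to 3 and 13.56, 13.54 and 13.48 in Control samples 1 to 3, groups that did not overlap but lay close together. The difference was -0.17 (95% interval -0.33 to -0.01, limma's adjusted p = 0.153), so that a change of more than 0.33 on the log2 scale lies outside its interval; 49.6% of all genes had a larger absolute difference. Enpep encodes aminopeptidase A, which removes acidic residues. It stood at 11.80, 12.05 and 12.28 in YAP Tg samples 1 to 3 and 12.51, 12.36 and 12.45 in Control samples 1 to 3. Its difference of -0.40 (95% interval -0.72 to -0.08) did not pass (limma's adjusted p = 0.103), and 25.7% of all genes had a larger absolute difference. Without YAP Tg sample 3 the Enpep difference was -0.52 with limma's adjusted p = 0.0498.

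Dpp4 encodes dipeptidyl peptidase 4, which cuts dipeptides ending in proline or alanine and is also the T cell surface protein CD26. Its signal was 12.19, 12.13 and 12.68 in YAP Tg samples 1 to 3 and 12.14, 12.30 and 12.16 in Control samples 1 to 3. It was the only one of the 9 whose groups overlapped, and YAP Tg sample 3 alone stood above all Controls. The difference was 0.13 (95% interval -0.25 to 0.51, limma's adjusted p = 0.610), and -0.041 without YAP Tg sample 3. Markers of T cells and intraepithelial lymphocytes were higher in the same crypts, 8 of 8 past limma's test, where 7.5% of all genes were higher. Their summed signal, turned back to the linear scale, was 18009 to 23149 in YAP Tg and 7159 to 8481 in Control samples. Among these markers Cd8a, a coreceptor of cytotoxic T cells, rose by 1.46 with an SE of 0.11 (limma's adjusted p = 0.00104). Their part in the Dpp4 signal was not tested.

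Alpi encodes intestinal alkaline phosphatase, which removes phosphate from dietary compounds and from bacterial endotoxin. It stood at 13.48, 13.08 and 13.32 in YAP Tg samples 1 to 3 and 13.03, 12.99 and 13.04 in Control samples 1 to 3. All YAP Tg values were above all Controls, sample 2 only just. The difference of 0.27 (SE 0.11, 95% interval 0.00 to 0.54) did not pass (limma's adjusted p = 0.165). Without YAP Tg sample 2 it was 0.38 and passed (limma's adjusted p = 0.0150).

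**Figure D2:**
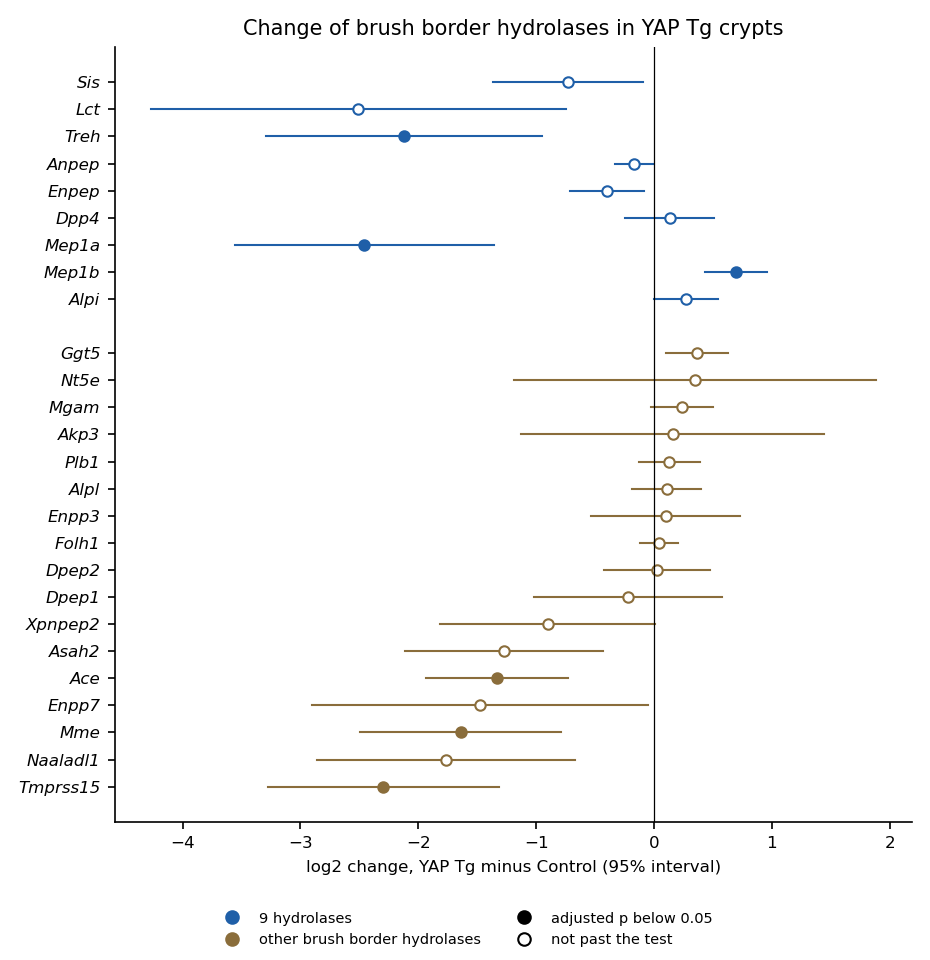
Log2 change, YAP Tg minus Control (horizontal axis), with limma's 95% interval for the 9 hydrolases (blue) and 17 other brush border hydrolases (brown); filled circles mark an adjusted p under 0.05 in limma. Treh and Mep1a lie below 0 and Mep1b above it, while the interval of Lct is the widest of the 9, from -4.27 to -0.75.

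Set against the peptidases, the disaccharidases were further below the Controls. The mean deviation of Sis, Lct and Treh from their Control means was -2.52, -2.21 and -0.62 in YAP Tg samples 1 to 3, and within -0.07 to 0.12 in the Control samples. For the 5 peptidases it was -0.63, -0.58 and -0.10 in YAP Tg samples 1 to 3, and within -0.05 to 0.08 in the Control samples. The disaccharidase value was the lower one in 3 of 3 YAP Tg samples, with differences of -1.89, -1.63 and -0.52 on the log2 scale. Their mean was -1.35 ± 0.73 (SD, n = 3), given without a test since the genes were chosen with earlier results known. Without Mep1a the peptidase values were 0.01, -0.05 and 0.23 in YAP Tg samples 1 to 3. Each class also held unlike members. Sis, a disaccharidase, differed by less than the peptidase Mep1a, and of the peptidases 1 rose, 1 fell and 3 did not pass. The contrast is between the listed genes only. Outside the 9, the maltase-glucoamylase Mgam differed by 0.24, with overlapping groups. The peptidases Tmprss15, Mme and Ace were called lower (-2.30, -1.64 and -1.33), while the dipeptidases Dpep1 and Dpep2 differed by -0.22 and 0.02.

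The spread among YAP Tg samples was itself unequal. The SD of Treh was 1.04 in YAP Tg and 0.07 in Control crypts, a ratio of 13.9, and that of Lct was 1.56 and 0.18, a ratio of 8.42. For Sis and Alpi the ratios were 9.88 and 9.10, and for Mep1b, Dpp4, Enpep, Mep1a and Anpep they were 3.98, 3.40, 3.20, 2.50 and 1.17. The median ratio over all genes was 1.93. The YAP Tg arrays also stood further apart as a whole, with correlations of 0.978 to 0.989 among them, against 0.996 to 0.997 among the Control arrays. Weights fitted by limma to each array were 0.50, 0.25 and 1.16 for YAP Tg samples 1 to 3 and 2.41, 2.13 and 1.36 for Control samples 1 to 3, where a lower weight marks a more variable array. The median log2 signal of the array control probe sets was 5.33, 5.15 and 5.03 in YAP Tg samples 1 to 3 and 4.99, 4.97 and 4.97 in Control samples 1 to 3. The part of array quality in the spread of the hydrolases was not tested. YAP Tg sample 3 was nearest the Control mean for 6 of the 6 members with a negative change. Among all genes with a negative change, sample 3 was nearest for 27.7% and sample 2 for 52.8%. Among the genes called lower these shares were 38.2% and 53.4%. The pattern was not particular to the 9. Of the other brush border hydrolases, the 3 called lower (Tmprss15, Mme and Ace) also had sample 3 nearest. Enpp7, which had a negative change but did not pass limma's test, had sample 2 nearest. Of the members with a positive change, Mep1b and Alpi had sample 2 nearest and Dpp4 sample 1, where sample 2 was nearest for 53.6% of all genes with a positive change and sample 1 for 26.1%.

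**Figure D3:**
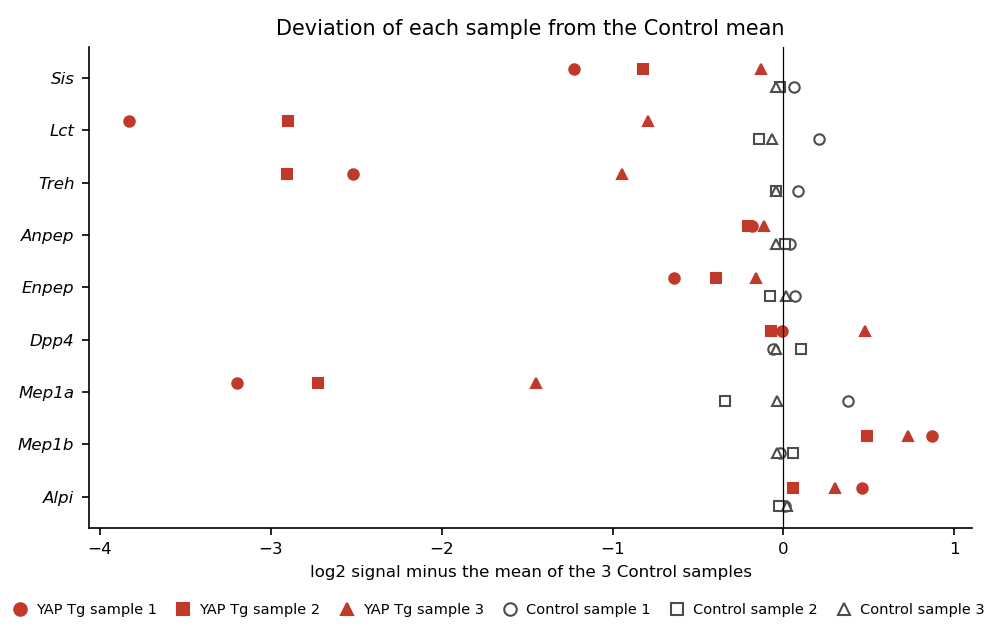
Log2 signal of each hydrolase minus its mean over the 3 Control samples (horizontal axis), for YAP Tg samples (red, filled, upper line of each gene) and Control samples (grey, open, lower line), with marker shapes for samples 1, 2 and 3. In Sis, Lct, Treh, Anpep, Enpep and Mep1a the triangle of YAP Tg sample 3 lies nearest to 0, whereas Mep1b and Alpi lie above 0 with the square of sample 2 nearest to it.

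For the 3 members with the largest mean difference, the other genes with the most similar profiles were found by the root mean square difference between mean-centred log2 values over the 6 arrays, among 19937 genes. These arrays share 2 groups, so any gene that differs by a like amount can appear here. Nearest to Lct were Aoc1, the diamine oxidase that breaks down histamine (0.32), Mep1a (0.39) and the glucose transporter Slc2a2 (0.39). Aoc1 stood at 9.61, 10.59 and 11.83 in YAP Tg samples 1 to 3 and 13.04, 12.77 and 12.84 in Control samples 1 to 3. Nearest to Treh were the cytochrome P450 Cyp2c65 (0.15), the fructose transporter Slc2a5 (0.15) and the nucleoside transporter Slc28a1 (0.16). Nearest to Mep1a were the glucuronosyltransferase Ugt2a3 (0.16), the carboxylesterase Ces1d (0.17) and the deiodinase Dio1 (0.18). Their log2 changes ran from -3.14 for Slc2a2 to -2.01 for Slc28a1. Slc2a5, which takes up fructose, stood at 8.82, 8.87 and 10.50 in YAP Tg samples 1 to 3 and 11.56, 11.32 and 11.58 in Control samples 1 to 3. It was picked for a profile like that of Treh, so its likeness to Treh over the samples is not a separate observation.

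Other hydrolases of the same membrane were read from a list of 22, of which 17 were measured. Of these 3 fell and none rose, where 6.7% of all genes were lower and 7.5% higher. All YAP Tg values lay below all Controls for 6 of the 17 and above them for 1, against 17% and 16.5% of all genes. The median log2 change was 0.023 and the mean -0.55, against 0.029 and -0.013 over all genes. Naaladl1, Enpp7 and Asah2 also had all YAP Tg values below (changes of -1.76, -1.48 and -1.28), without passing limma's test. Tmprss15 encodes enteropeptidase, which activates trypsinogen. It stood at 6.96, 5.99 and 7.72 in YAP Tg samples 1 to 3 and 9.12, 9.25 and 9.19 in Control samples 1 to 3, which is a change of -2.30 with an SE of 0.41 (limma's adjusted p = 0.0159). Mme, the endopeptidase neprilysin, changed by -1.64 (SE 0.35, limma's adjusted p = 0.0297). Ace, the angiotensin-converting enzyme, which releases dipeptides, changed by -1.33 (SE 0.25, limma's adjusted p = 0.0194). Mgam, the maltase-glucoamylase closely related to Sis, differed by 0.24 (95% interval -0.03 to 0.50, limma's adjusted p = 0.207). It stood at 12.68, 12.64 and 12.95 in YAP Tg samples 1 to 3 and 12.65, 12.45 and 12.47 in Control samples 1 to 3, and the groups overlapped. The 3 calls were all lost without Control sample 1, 2 or 3, those of Mme and Ace also without YAP Tg sample 1, and 6 genes of the list were lower without YAP Tg sample 3. Without YAP Tg sample 2, 2 were higher. Akp3, another intestinal alkaline phosphatase, differed by 0.16 (95% interval -1.13 to 1.45); near-identical copies such as the alkaline phosphatases can share probes.

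The structural genes of the microvillus gave higher signals where they passed the test. Of 20 measured, 8 rose and none fell, and 12 had all YAP Tg values above all Controls, with a median change of 0.31; over all genes 7.5% were higher and 16.5% had all YAP Tg values above. Tmigd1, an adhesion protein of the brush border, stood at 9.18, 8.15 and 8.67 in YAP Tg samples 1 to 3 and 6.24, 6.22 and 6.30 in Control samples 1 to 3. It rose by 2.42 (SE 0.25, limma's adjusted p = 0.00264). Eps8, which caps actin filaments at the microvillus tip, rose by 0.77 (SE 0.10), its relative Eps8l2 by 0.98 (SE 0.11) and Ezr, which encodes the membrane-actin linker ezrin, by 0.59 (SE 0.08), with limma's adjusted p from 0.00404 to 0.00665. These 4 genes kept their calls with each sample left out in turn. The count of 8 was 14 without YAP Tg sample 2 and 4 without any 1 of the other samples. The bundling protein villin, Vil1, differed by 0.10 (95% interval -0.08 to 0.28, limma's adjusted p = 0.407).

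Among 17 measured transcription factors of enterocytes, 2 rose and 4 fell, with a median change of -0.092. Over all genes 7.5% were higher and 6.7% lower. Klf4, a zinc finger factor of differentiated epithelium, rose by 1.5 with an SE of 0.20 (limma's adjusted p = 0.00602) and Prdm1 rose by 1.19 (SE 0.22, limma's adjusted p = 0.0201). Prdm1 stood at 8.40, 8.08 and 7.61 in YAP Tg samples 1 to 3 and 6.96, 7.02 and 6.55 in Control samples 1 to 3, so YAP Tg sample 3 was lowest of its group but above every Control. Cdx1, a homeobox factor of the intestine, fell by 0.97 with an SE of 0.14 (limma's adjusted p = 0.00848) and the forkhead factor Foxa3 fell by 1.64 (SE 0.27, limma's adjusted p = 0.0124). Calls of Prdm1 and Foxa3 were lost without Control sample 1, 2 or 3 and that of Cdx1 without Control sample 3. The count that rose was 5 without YAP Tg sample 2 and 1 without any 1 Control sample, and the count that fell was 1, 1 and 0 without Control sample 1, 2 and 3. Hnf4g and Klf5 were called lower too, with changes of -0.74 and -0.72 (SE 0.16 and 0.17, limma's adjusted p = 0.0289 and 0.0374). Cdx2 differed by -0.28 (95% interval -0.81 to 0.24), Hnf4a by 0.14 (-0.10 to 0.37) and Gata4 by -0.09 (-0.31 to 0.13). None of these last 3 passed limma's test (adjusted p = 0.427, 0.385 and 0.543).

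Genes of suckling and of weaned enterocytes moved both ways, where 7.5% of all genes tested were higher and 6.7% lower. Of 12 suckling genes 4 rose and 2 fell (median -0.023). Dab2, an endocytic adaptor, rose by 2.06 with an SE of 0.09 (limma's adjusted p = 0.000471), and the lysosomal sialidase Neu1 rose by 2.13 (SE 0.17, limma's adjusted p = 0.00121), both with each sample left out in turn, while Blvrb, a biliverdin reductase, fell by 0.56 (SE 0.09, limma's adjusted p = 0.0115). Blvrb was not called without Control sample 1 or 3, and the counts were 2 higher without any 1 Control sample, 0 lower without Control sample 1 or 3, 1 lower without YAP Tg sample 1 or 3 or Control sample 2 and 3 lower without YAP Tg sample 2. Of 10 weaned genes 1 rose and 2 fell (median 0.10). Arg2, a mitochondrial arginase, stood at 9.58, 8.90 and 11.10 in YAP Tg samples 1 to 3 and 12.97, 13.00 and 12.97 in Control samples 1 to 3, and fell by 3.12 (SE 0.52, limma's adjusted p = 0.0137). Slc2a5 fell by 2.09 (SE 0.45, limma's adjusted p = 0.0296), and Cdkn1c, an inhibitor of cell cycle kinases, rose by 0.58 (SE 0.13, limma's adjusted p = 0.0308). No weaned gene was called in either direction without Control sample 1, 2 or 3, Slc2a5 was not called without YAP Tg sample 1, and Cdkn1c was not called without YAP Tg sample 1 or 3. Without YAP Tg sample 2, 3 were higher. Lct, the suckling disaccharidase, and Treh, the weaned one, had mean differences of the same sign.

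**Figure D4:**
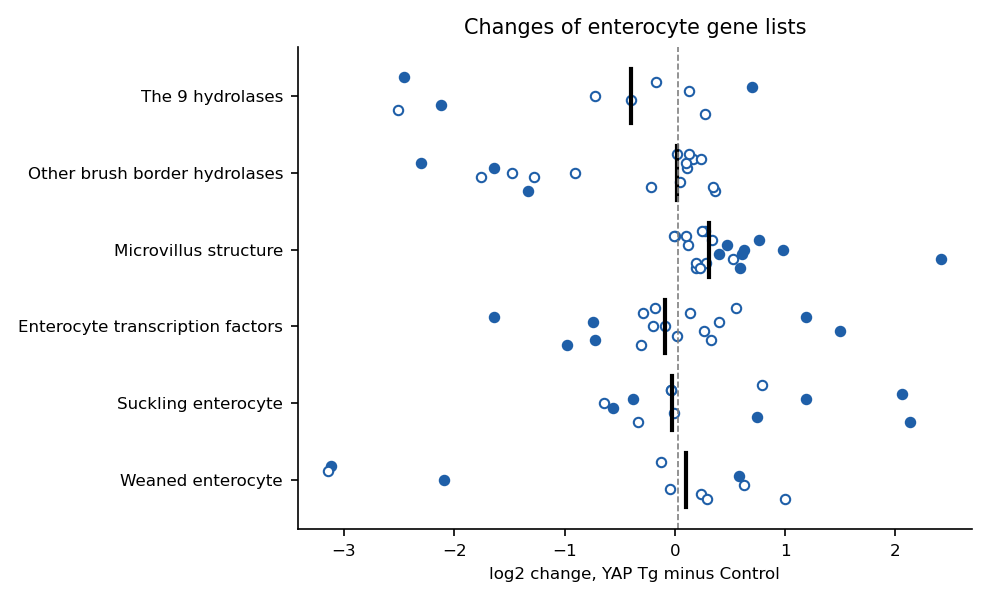
Log2 change, YAP Tg minus Control (horizontal axis), of each gene of the 9 hydrolases and of 5 enterocyte lists, with filled circles for genes with an adjusted p under 0.05 in limma, black bars for each list's median and a dashed line for the median of all genes (0.029). The hydrolases spread from -2.51 to 0.70, and filled circles of the microvillus list all lie above 0.

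Crypt markers were read beside the crypt label. Olfm4, a secreted protein of crypt base stem cells, had a signal of 8.52, 10.23 and 10.57 in YAP Tg samples 1 to 3 and 12.87, 13.00 and 13.02 in Control samples 1 to 3. The Paneth cell lysozyme Lyz1, which did not pass limma's test, averaged 13.14 in YAP Tg and 13.54 in Control crypts, so both crypt markers were well above the array control probe sets (median 5.07). The median of all genes tested, 6.74 to 6.79 over the arrays, was above it too. This reading therefore shows that the markers were present and cannot tell crypt from villus material. Enterocyte transcripts were present too. The marker counts that follow stand beside 7.5% of all genes higher and 6.7% lower. Of 14 measured enterocyte markers 2 rose and 2 fell, with a summed linear signal of 83022 to 103825 in YAP Tg and 87236 to 102343 in Control samples. Fabp2, a fatty acid binding protein, fell by 1.49 with an SE of 0.11 (limma's adjusted p = 0.00104) and the differentiation keratin Krt20 rose by 1.09 (SE 0.12, limma's adjusted p = 0.00335). Without Control sample 3 just 1 enterocyte marker was lower, without YAP Tg sample 2 there were 4, and 1 was higher without YAP Tg sample 3 or Control sample 1 or 2. Of 6 Paneth cell markers 2 fell and none rose (summed linear signal 20104 to 24341 in YAP Tg and 24502 to 32129 in Control samples), namely the phospholipase Pla2g2a (a change of -1.30) and the angiogenin Ang4 (-0.65). Their count was 1 without YAP Tg sample 1 or 3 or any 1 Control sample and 3 without YAP Tg sample 2. Of 5 goblet cell markers 2 fell and none rose (15384 to 21865 in YAP Tg and 23871 to 25406 in Control samples), namely the disulfide isomerase Agr2 (a change of -2.21) and the transcription factor Spdef (-1.05). That count was 1 without Control sample 3 and 3 without YAP Tg sample 3. All 6 Lgr5 stem cell markers fell (summed linear signal 1308 to 3125 in YAP Tg and 11664 to 12306 in Control samples), and 3, 3 and 2 of them without Control sample 1, 2 and 3. In these bulk samples, fewer cells of a type and less RNA per cell cannot be told apart. The part of cell makeup in the hydrolase differences was not tested.

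Lactase and trehalase are known to be highest in the upper small intestine, so markers of position were read as well. Of 4 duodenal and jejunal markers 2 rose and none fell (summed linear signal 2793 to 3931 in YAP Tg and 1937 to 2201 in Control samples). Of 5 ileal markers 1 rose and none fell (6508 to 10815 in YAP Tg and 5045 to 5733 in Control samples). Over all genes 7.5% were higher and 6.7% lower. The ileal sum came mainly from Muc3, Slc51a and Slc51b. Fabp6 averaged 4.71 in YAP Tg and 4.74 in Control samples, below the array control median of 5.07. Slc10a2 averaged 5.52 and 5.35, and Dcpp1, a duodenal and jejunal marker, 5.11 and 5.10. With any 1 Control sample left out, 1 duodenal and jejunal marker rose, and without YAP Tg sample 1 or 2 there were 2 ileal markers higher. No colonic marker of 5 passed limma's test, 1 had an unadjusted p below 0.05, and their sum was 420 to 1820 in YAP Tg and 659 to 1499 in Control samples. Slc40a1, the iron exporter of the duodenum, rose by 1.99 with an SE of 0.29 (limma's adjusted p = 0.00808). The part of sampling position in the differences of Lct and Treh was not tested.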

How the data were processed

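The authors deposited log2 signals for 35556 probe sets on each of 6 arrays, which the submitters' processing notes credit to Affymetrix Expression Console (version 1.1). Values up to 14.41 show the log2 scale; the sources used here give neither background correction nor normalization. A normalization that levels the arrays hides any change common to all genes. Groups came from the sample titles. Genes were named from 21789 probe sets with 1 symbol, taking the probe set of highest mean for each of 19938 genes; a further 6617, whose numbers lie below that of the first named one, were taken to be array controls.

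Differences, YAP Tg minus Control, were tested with limma (version 3.58.1, R 4.3.3, lmFit then eBayes, two-sided and without covariates), with Benjamini-Hochberg adjustment over all genes at 0.05. The procedure was tested on simulated data that gave both groups the same spread for each gene. In the real data the YAP Tg samples spread more (median SD ratio 1.93), which that simulation does not cover. The number of arrays limits precision. The titles call the Control samples mice and number the YAP Tg samples without saying that each is a separate mouse, so p-values measure the spread between these samples, which may in part be technical. The members and lists were chosen with earlier results of these data known. Named were all members, per list up to 4 called genes with the smallest p, and the nearest profiles. Genes named beyond this were chosen after their values were seen. They were Mgam, Akp3, Naaladl1, Enpp7, Asah2, Dpep1, Dpep2, Vil1, Cdx2, Hnf4a, Hnf4g, Klf5, Gata4, Lyz1, Fabp6, Slc10a2, Slc51a, Muc3 and Dcpp1. Promoters were searched with Python 3.11.15. Alternatives were quantile normalization, median centring, a signal filter, a trended robust prior, array weights, averaged probe sets, the replicate number as a block and leaving out each sample; the marker list counts without each sample were added after seeing the data.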

Additional observations from a re-analysis of the deposited data

How the results depend on the processing

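Of the 3 called hydrolases, Treh, Mep1a and Mep1b kept their calls under quantile normalization, median centring, the signal filter, the trended robust prior, array weights and averaged probe sets. Array weights added Alpi, giving 2 higher, and raised the counts over all genes to 2459 higher and 3481 lower. With the replicate block 1 hydrolase was lower, since Treh was not called (limma's adjusted p = 0.0610), and 975 genes were higher and 727 lower in all. Deviations of same-numbered samples correlated at -0.13, 0.012 and 0.098 across genes, so the numbers were not taken to pair samples. Leaving out 1 sample at a time gave 0 to 2 hydrolases higher and 0 to 5 lower, and 669 to 2802 genes higher and 369 to 3889 lower in all; without Control sample 1 or 3 no hydrolase was called by limma (4 had an unadjusted p under 0.05 in each case), and 5 were lower without YAP Tg sample 3. Of the 9 log2 changes, only that of Dpp4 changed sign in any of the 13 alternatives, to -0.041 without YAP Tg sample 3, and it was up to 0.23 with another sample left out. The mean difference between disaccharidases and peptidases stayed between -1.76 and -1.07 with a sample left out. The number of arrays limits these calls. No hydrolase averaged below the median of the array control probe sets, but Mep1a in YAP Tg samples 1 and 2 lay below the median of all genes tested on those arrays.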

Other observations

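Markers of the villus tip, the last stage of the enterocyte before it is shed, were higher where they passed the test. Of 10 measured, 4 rose and none fell, where 7.5% of all genes were higher and 6.7% lower. Their median log2 change was 0.81, and the summed linear signal was 35141 to 56909 in YAP Tg and 26582 to 32723 in Control samples. Slc28a2, a purine nucleoside transporter, stood at 12.92, 11.29 and 12.10 in YAP Tg samples 1 to 3 and 9.33, 10.32 and 9.70 in Control samples 1 to 3, and rose by 2.32 (SE 0.45, limma's adjusted p = 0.0210). Pmp22, a membrane protein, rose by 1.02 (SE 0.15, limma's adjusted p = 0.00897), and Egfr, the receptor for epidermal growth factor, by 1.40 (SE 0.30, limma's adjusted p = 0.0286). The median deviation of the list was 1.24, 0.69 and 0.80 in YAP Tg samples 1 to 3. The count of 4 was 7 without YAP Tg sample 2, 2 without YAP Tg sample 3 or Control sample 2 or 3 and 1 without Control sample 1. Slc28a2 and Egfr were not called without YAP Tg sample 3 or Control sample 1, 2 or 3, nor Pmp22 without Control sample 1.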
